A study of Mus musculus with 7 samples.

Results

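The genes described are 9 receptor chains through which naive T cells sense homeostatic cytokines, chosen by name: the 7 chains of the common gamma chain family Il2ra, Il2rb, Il2rg, Il7r, Il4ra, Il15ra and Il21r, and the 2 gp130-type chains Il6st and Il6ra. They are 9 of 34797 gene names on the array and are read by 11 probes, all of which passed the filter on dim probes, and they are among 18231 genes that did so. Il2ra passed that filter through the Lck-off arrays alone.

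Total RNA was measured on 7 single-colour arrays, 4 Lck-off and 3 WT. The Lck-off mice were OT-1 heterozygous, Rag-/- and Lck-/-, and carried an inducible Lck that was on while doxycycline was in the diet. Their cells were taken after 7 days without doxycycline. The WT mice were OT-1 heterozygous and Rag-/- with no change to Lck listed, and the labels do not state their diet. All samples were therefore T cells with 1 transgenic receptor, which recognises an ovalbumin peptide, from animals that could not rearrange another. Cells came from lymph node, had not been activated, and were sorted as CD8b+ and CD44low. The labels state neither the age of the mice nor which cell types express the inducible Lck. No Lck-/- mice still on doxycycline were measured, so genotype, diet and the loss of Lck cannot be told apart. The labels call the samples biological replicates but do not say whether each came from 1 animal, so the p-values measure the spread between these samples.

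Levels below are log2 processed intensities after division by the 75th percentile of each array. A difference is the Lck-off mean minus the WT mean of these log2 levels, and ± is the SD over 4 Lck-off or 3 WT arrays unless SE is written. A gene is said to have risen or fallen where limma's Benjamini-Hochberg adjusted p over all 18231 genes was under 0.05, which 8.38% of them reached. Intensities of different probes cannot be set against each other, so no order of levels among the receptors is given. Arrays were alike in brightness, with 75th percentiles of 208 to 243 and no saturated spot, and each had 42.5% to 48.6% of its probes well above background. The defining T cell genes Cd8a, Cd8b1, Cd3d, Cd3e and Thy1 were well above background on all arrays. Lck itself read 8.52, 8.83, 8.60 and 8.55 on the Lck-off arrays, against 8.99, 9.02 and 8.98 on the WT arrays (adjusted p = 0.0493 by limma). It lost its call in 6 of 7 repeats that left out 1 array (adjusted p up to 0.154), holding it only without Lck-off replicate 2 (0.0149), and missed with median scaling (0.196), no filter (0.215) and the slide row as a block (0.0583), and the labels do not say whether its probe lies in the disrupted part. In a bulk sample, fewer cells of a type and less RNA per cell cannot be told apart.

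Cytokines of the common gamma chain family signal through a shared chain, encoded by Il2rg, which binds the kinase JAK3, together with a second chain that binds JAK1. The alpha chains of the IL-2 and IL-15 receptors add affinity, and the beta chain Il2rb is shared by IL-2 and IL-15. Naive CD8 T cells depend on IL-7 for survival, and memory-like CD8 cells with high Il2rb depend on IL-15. IL-6 binds the chain encoded by Il6ra, which then joins gp130, encoded by Il6st, the signalling chain shared by the IL-6 family.

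Of the 9 receptor genes 1 rose, 2 fell and 6 did not pass the test, so that 33.3% were called against 8.38% of all genes (3.8% rose and 4.57% fell). Il2ra rose, while Il2rb and Il6st fell. Arrays of the groups did not overlap for 5 of the 9 (Il2ra, Il2rb, Il6st, Il21r and Il7r), where 21.8% of all genes had no overlap. Both counts include Il2ra, which passed the filter on dim probes through the Lck-off arrays alone. With signal required on all 7 arrays Il2ra was not tested, and 2 receptor genes were called. With median scaling, no filter on dim probes or the replicate block, 1 was called. The median difference over the 9 was 0.01, against -0.01 over all genes.

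**Figure D1:**
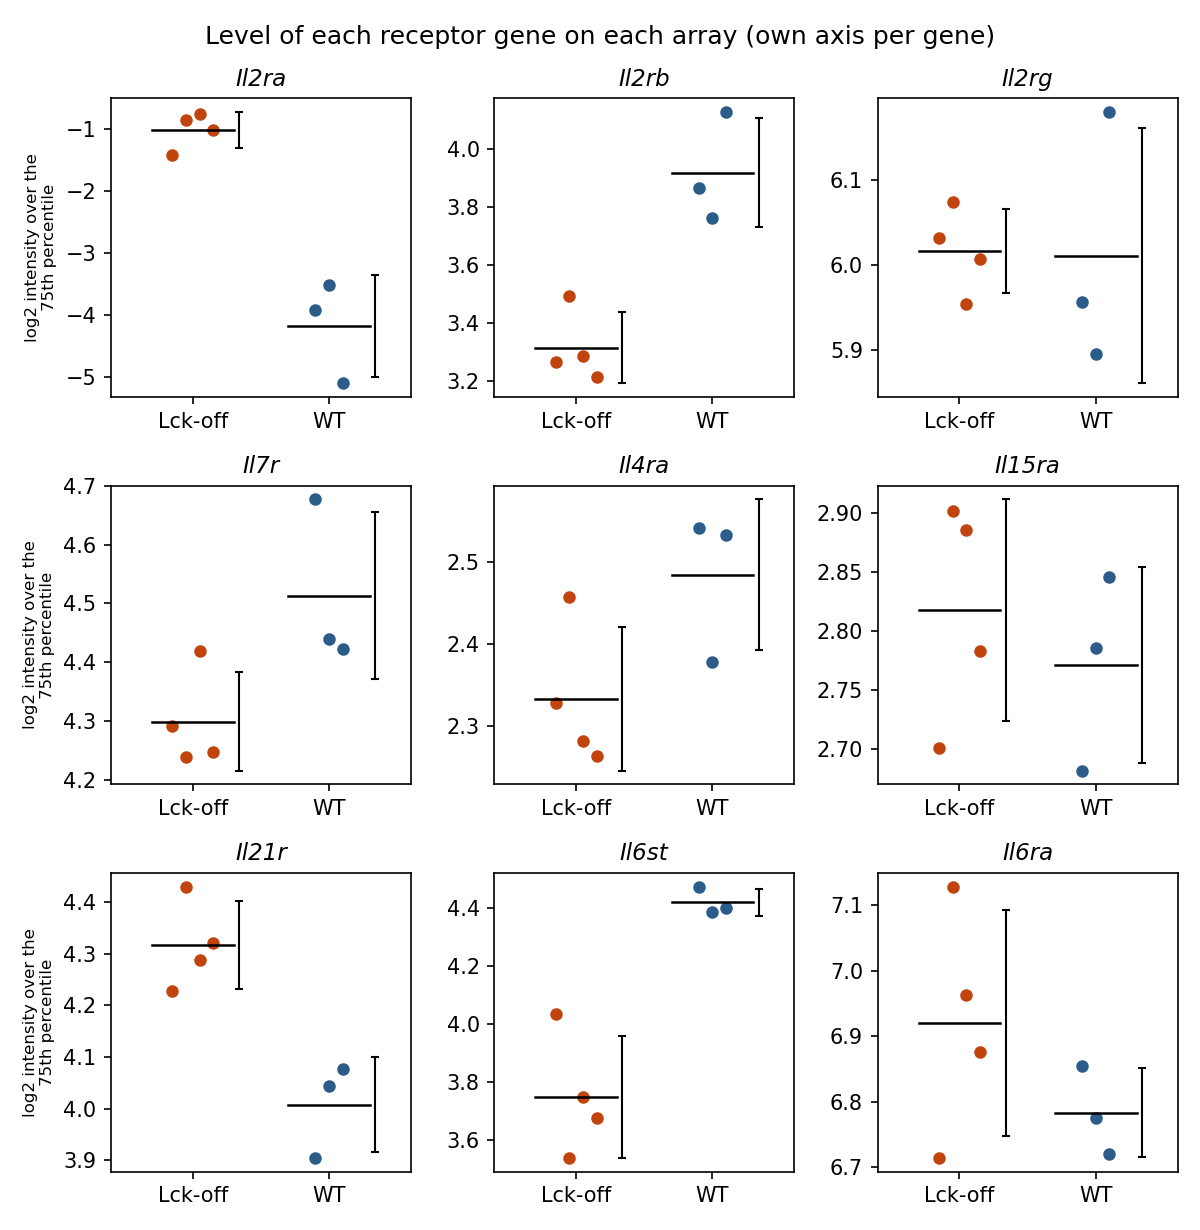
Level of each of the 9 receptor genes on each array, in log2 intensity relative to the array's 75th percentile, with the 4 Lck-off arrays left of the 3 WT arrays. Points are arrays, horizontal lines are means and the bars beside them are ± 1 SD; each gene has its own axis, and Il2ra, Il2rb, Il6st, Il21r and Il7r have no overlap between the groups.

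Of the IL-2 receptor chains Il2ra rose, Il2rb fell and Il2rg did not pass. Il2ra encodes the alpha chain CD25, which raises affinity for IL-2 and is a marker of activated and regulatory T cells. Its probe read processed intensities of 82.9, 117.5, 144.5 and 114.6 on the Lck-off arrays, against 13.7, 18.3 and 6.8 on the WT arrays. It was well above background on 4 of 4 Lck-off arrays and on 0 of 3 WT arrays. The WT values therefore only bound the level there. Against the dimmest signal that counted as detected on the WT arrays, the Lck-off level was 7.14-fold higher. That fold is not a minimum, since it changes with the treatment of faint signal. The measured levels were -1.01 ± 0.29 in Lck-off and -4.18 ± 0.82 in WT, a difference of 3.17 (SE 0.37, adjusted p = 0.00263 by limma). The call held in 7 of 7 repeats that left out 1 array, with differences of 2.71 to 3.51.

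The size of the Il2ra difference depended on how faint signal was treated. It was 1.00 with normexp background correction, which adds an offset of 50 to every spot, and 1.03 in the authors' deposited table, each with an adjusted p under 0.05 (0.000436 and 0.000186). Within slide row 1 it was 4.30, and within row 2 it was 2.50 (adjusted p = 0.0825 there). The Il2ra probe has 60 bases on the plus strand of chromosome 2 from 11614744 to 11614803 (mm9), and starts at base 4350 of the transcript. Its 30 leading bases, shown because this single probe carries the largest difference among the 9 genes, are given in lower case.

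Il2ra probe: gtggcttctgtttgatctctctcaatgata

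Markers of cells that carry Il2ra in other settings were read on the same arrays. Foxp3, the defining factor of regulatory T cells, was at -1.34 ± 0.38 in Lck-off and -1.36 ± 0.15 in WT, and Cd4 was at 2.10 ± 0.14 in Lck-off and 2.06 ± 0.18 in WT. Of 7 genes in the list of CD4 and regulatory T cells, 0 rose and 1 fell (Ikzf2, which fell by 1.70), and no array had Cd40lg or Ctla4 well above background. The summed level of that list, relative to the 75th percentile, was 23.7 to 27.2 in Lck-off and 22.0 to 22.7 in WT. Each such sum is weighted to its brightest probes, so a faint gene hardly moves it. For 12 dendritic cell genes the sum was 577 to 629 in Lck-off and 468 to 520 in WT. Its brightest probes were those of Siglech (8.10 in Lck-off, 8.00 in WT), Ccr7 (7.79 and 7.72) and Bst2 (6.67 and 4.94). In that list 9 genes were measured, with a median difference of 1.07. Bst2, a gene that T cells also express, passed (it rose by 1.73). The antigen presentation genes H2-Ab1 (1.40), H2-Eb1 (1.26), Cd74 (1.12) and H2-Aa (1.07) had positive differences that did not pass, with overlapping groups (adjusted p = 0.223 to 0.374 by limma), and Clec9a was not well above background on any array. For 14 macrophage, monocyte and neutrophil genes the sum was 242 to 282 in Lck-off and 218 to 268 in WT. That list's brightest probes were those of Csf3r (7.69 in Lck-off, 7.59 in WT) and Itgam (5.61 and 5.47). Of its 8 measured genes, with a median difference of 0.45, C1qb rose by 0.59. C1qc (1.75), C1qa (1.38) and Fcer1g (0.90) had positive differences that did not pass, with overlapping groups (adjusted p = 0.0733 to 0.22 by limma), and Fcgr3 was not well above background on any array. For 8 B cell genes the sum was 12.3 to 15.3 in Lck-off and 12.6 to 14.7 in WT, with Ms4a1, Pax5 and Blk not well above background on any array. For 8 NK cell genes it was 42.3 to 53.6 in Lck-off and 36.4 to 38.7 in WT. Klrk1 was not well above background on any array, and Gzma, which activated CD8 cells also express, rose by 2.77 while Eomes fell by 0.86. The part of such cells in the level of Il2ra was not tested.

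The Il2ra promoter is shown because it held a match to the NF-κB motif, searched on both strands, which 5.78% of 32851 promoters of the same length hold. RefSeq's promoter table (GRCm38.p6, 250 bases before to 50 after a gene's start) matched 8 of the 9 genes with 9 promoters, and Il2rb was not among them. The match, in capitals, runs from base -201 to -192 before the start on chr2:11642542-11642841, plus strand.

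Il2ra promoter: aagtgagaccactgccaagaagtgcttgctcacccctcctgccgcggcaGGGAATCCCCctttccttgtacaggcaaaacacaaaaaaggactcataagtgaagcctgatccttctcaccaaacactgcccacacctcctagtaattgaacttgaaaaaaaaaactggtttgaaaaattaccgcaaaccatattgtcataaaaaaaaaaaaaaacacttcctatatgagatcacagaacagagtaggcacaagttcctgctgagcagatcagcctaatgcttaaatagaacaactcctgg

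Among the other 8 promoters of these genes, the STAT motif TTCNNNGAA matched in that of Il7r (8.30% of all promoters hold it), the AP-1 motif TGANTCA in 1 of the 2 of Il15ra (7.81%) and the FOXO motif TGTTTAC in that of Il21r (3.65%). The IRF motif AANNGAAA, which 23.9% of promoters hold, matched in those of Il2rg and Il6st and in both of Il15ra. The T-box motif AGGTGTGA (1.28%) matched in none of the 9 promoters, and that of Il2rb was not searched. A match describes letters in the window only.

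Il2rb encodes the beta chain CD122, the chain through which both IL-2 and IL-15 signal, and it fell. Its levels were 3.27, 3.49, 3.29 and 3.22 on the Lck-off arrays, against 3.86, 3.76 and 4.13 on the WT arrays, so that WT arrays all lay above the Lck-off arrays. The means were 3.32 ± 0.12 in Lck-off and 3.92 ± 0.19 in WT. The fall of 0.60 (SE 0.11, adjusted p = 0.0191 by limma) left 65.9% of the WT level, with a 95% confidence interval of 54.8% to 79.2%. The call ended without WT replicate 1 (adjusted p = 0.0526), WT replicate 3 (0.0514), Lck-off replicate 3 (0.0608) or Lck-off replicate 4 (0.0602), while the difference stayed between -0.68 and -0.50. Taken alone, slide rows 1 and 2 gave -0.74 and -0.57, and neither passed.

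Il2rb probe: gtctattctggggtgggtttttctgtgaag

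These are the 30 leading bases of the 60 of the Il2rb probe, which reads the minus strand at bases 78311109 to 78311168 of chromosome 15 (mm9). The probe named AI790276 lies on the same strand from 78309771 to 78309830, downstream of it. AI790276 levels were 3.83, 4.05, 3.83 and 3.77 on the Lck-off arrays, against 4.49, 4.48 and 4.82 on the WT arrays. Its groups did not overlap either, and it fell by 0.73 (SE 0.12, adjusted p = 0.00941 by limma). Whether it belongs to the same transcript as Il2rb was not tested, since no annotation of that build was used.

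Il2rg encodes the common gamma chain CD132, the chain shared by every receptor of the family. Its levels were 6.03, 6.07, 5.95 and 6.01 on the Lck-off arrays, against 5.96, 5.90 and 6.18 on the WT arrays, and the WT range enclosed the Lck-off range. The difference was 0.01 (SE 0.09, adjusted p = 0.984 by limma), with a 95% confidence interval of -0.20 to 0.21, or 87.1% to 116% of the WT level. Its sign turned under quantile normalization (-0.04) and median scaling (-0.01).

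Within an array, the log2 intensity of Il2rb minus that of Il2rg was -2.77, -2.58, -2.67 and -2.79 in Lck-off, against -2.09, -2.13 and -2.05 in WT. This within-array difference spread less between the WT arrays than Il2rb alone (SD 0.04 against 0.19). The groups did not overlap, with a change of -0.61 that is close to the difference of Il2rb alone and was not tested.

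Il15ra encodes the alpha chain that holds IL-15 for presentation to neighbouring cells, and its gene neighbours Il2ra. Its brighter probe, at base 1277 of its transcript, read 2.70, 2.90, 2.89 and 2.78 on the Lck-off arrays, against 2.68, 2.79 and 2.85 on the WT arrays. The groups overlapped there, with a difference of 0.05 (SE 0.08, adjusted p = 0.815 by limma). The fainter probe, at base 724 of another RefSeq transcript of the gene, read -0.77, -0.60, -0.38 and -0.39 on the Lck-off arrays, against -0.82, -1.35 and -1.03 on the WT arrays. Each Lck-off array was higher than every WT array at the fainter probe, yet its difference of 0.53 (SE 0.16) did not pass over the kept probes (adjusted p = 0.0987 by limma), of which 7.33% did. The difference between the fainter and the brighter probe changed by 0.48, and the groups overlapped in it (exact permutation, two-sided, 2 of 35 splits, p = 0.0571, and 0.114 adjusted over the 2 genes with a pair of probes).

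Il15ra probe at base 724: aaaccatggaaacagtaccaatgactgtga
Il15ra probe at base 1277: gacaaaaccaaactcagtgactatatatgt

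The 30 leading bases of both Il15ra probes are printed because they gave different values for 1 gene. Both lie on the plus strand of chromosome 2 (mm9), from 11654809 to 11654868 and from 11655416 to 11655475.

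**Figure D2:**
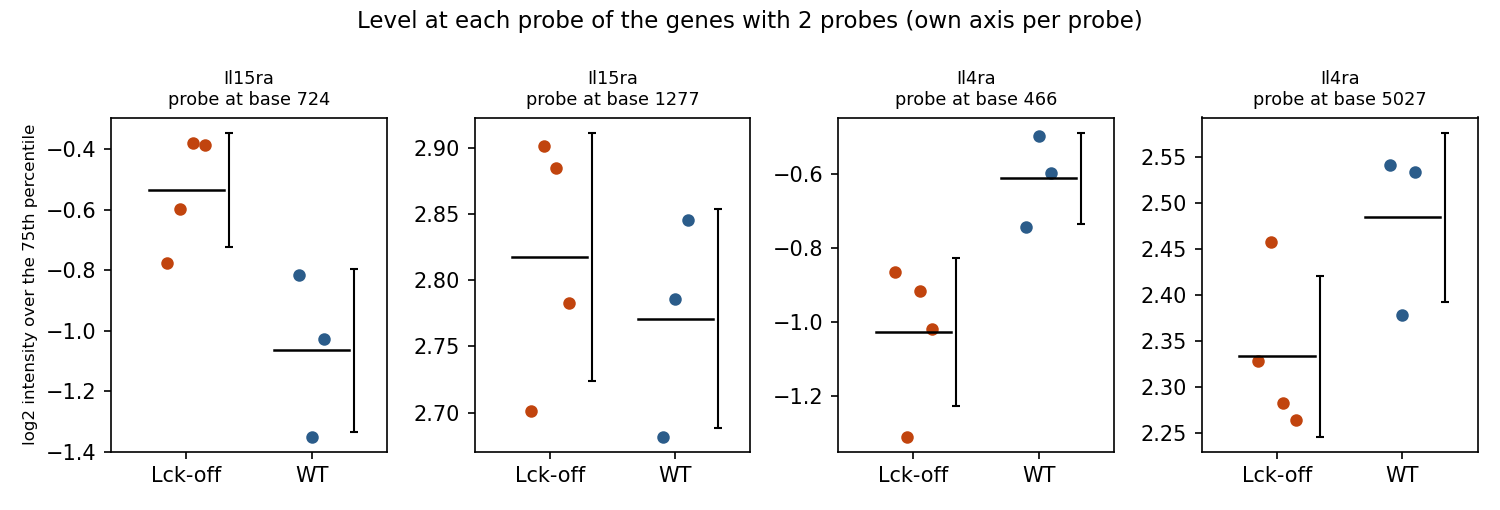
Levels at each probe of Il15ra and Il4ra, the 2 receptor genes with a pair of probes, in log2 intensity relative to the array's 75th percentile, with the 4 Lck-off arrays left of the 3 WT arrays. Points are arrays, lines are means and bars are ± 1 SD; the fainter Il15ra and the fainter Il4ra probe have no overlap between the groups, and the brighter ones overlap.

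Il7r encodes the IL-7 receptor alpha chain CD127, on which the survival of naive T cells depends. Its levels were 4.29, 4.24, 4.42 and 4.25 on the Lck-off arrays, against 4.68, 4.44 and 4.42 on the WT arrays. Lck-off replicate 3 and WT replicate 3 both read 4.42 when rounded, so the groups only just missed overlapping. The difference of -0.21 (SE 0.09) did not pass the test (adjusted p = 0.234 by limma; 74.2% to 100% of the WT level as the 95% confidence interval). No alternative brought Il7r past the threshold (adjusted p = 0.130 to 0.890).

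Crlf2 encodes the chain that pairs with the IL-7 receptor alpha chain to bind TSLP, and it fell. Its level was 4.92 ± 0.08 in Lck-off and 5.61 ± 0.11 in WT, a fall of 0.68 (SE 0.08, adjusted p = 0.00326 by limma), and the call held in 7 of 7 repeats that left out 1 array. The within-array difference of Crlf2 minus Il7r was 0.43 to 0.76 in Lck-off and 1.05 to 1.14 in WT. The other 3 listed chains of the family, Il9r, Il13ra1 and Il13ra2, did not pass the filter on dim probes.

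Il4ra encodes the chain that binds IL-4 and, with Il13ra1, IL-13. Its brighter probe, at base 5027 of the transcript, read 2.33, 2.46, 2.28 and 2.26 on the Lck-off arrays, against 2.54, 2.38 and 2.53 on the WT arrays, and the groups overlapped. The difference there was -0.15 (SE 0.08, adjusted p = 0.351 by limma). The fainter probe, at base 466, read -0.86, -1.31, -0.91 and -1.02 on the Lck-off arrays, against -0.74, -0.50 and -0.60 on the WT arrays, with no overlap. Its difference was -0.42 (SE 0.13, adjusted p = 0.11 over the kept probes by limma). With all kept probes averaged, Il4ra was at the threshold (-0.28, adjusted p = 0.0499). The difference between its probes changed by -0.26 (exact permutation, two-sided, 10 of 35 splits, p = 0.286, and 0.286 adjusted over the 2 genes with a pair of probes).

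Il21r, which lies next to Il4ra, encodes the chain that binds IL-21, a cytokine made by helper T cells. Its levels were 4.23, 4.43, 4.29 and 4.32 on the Lck-off arrays, against 3.90, 4.04 and 4.08 on the WT arrays, and each Lck-off array was the higher. The difference of 0.31 (SE 0.08) did not pass (adjusted p = 0.0644 by limma), and its 95% confidence interval was 109% to 141% of the WT level. It passed with normexp (adjusted p = 0.0378), quantile normalization (0.0452), the authors' deposited table (0.0286) and trended, robust moderation (0.0183), with differences of 0.29 to 0.32. Relative to Il2rg within an array, Il21r was -1.80 to -1.64 in Lck-off and -2.10 to -1.85 in WT.

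Of the gp130 chains 1 passed the test. Il6st, the gene of gp130, fell: its levels were 4.03, 3.54, 3.75 and 3.68 on the Lck-off arrays, against 4.47, 4.38 and 4.40 on the WT arrays. The WT arrays lay close together and above every Lck-off array, of which replicate 1 was the highest. The means were 3.75 ± 0.21 in Lck-off and 4.42 ± 0.05 in WT, a fall of 0.67 (SE 0.12, adjusted p = 0.0156 by limma) to 62.9% of the WT level (95% confidence interval 51.7% to 76.5%). Without Lck-off replicates 1 or 2 the call held, and without any other array it ended (adjusted p = 0.0505 to 0.0601), at differences of -0.69 to -0.64. Within rows 1 and 2 of the slide the difference was -0.76 and -0.57, and neither row alone passed.

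Il6ra, the IL-6 binding chain, read 6.71, 7.13, 6.96 and 6.88 on the Lck-off arrays, against 6.85, 6.77 and 6.72 on the WT arrays. Lck-off replicate 1 was below every WT array and the other Lck-off arrays above them all. The difference of 0.14 (SE 0.11) did not pass (adjusted p = 0.548 by limma), and it was 0.33 within row 1 and -0.02 within row 2. Within an array, Il6st minus Il6ra was -2.68, -3.59, -3.21 and -3.20 in Lck-off, against -2.38, -2.39 and -2.32 in WT. This change of -0.81 was not tested.

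Il6st probe: atcttctcacagtaagcagtctagttatgg
Il6st promoter: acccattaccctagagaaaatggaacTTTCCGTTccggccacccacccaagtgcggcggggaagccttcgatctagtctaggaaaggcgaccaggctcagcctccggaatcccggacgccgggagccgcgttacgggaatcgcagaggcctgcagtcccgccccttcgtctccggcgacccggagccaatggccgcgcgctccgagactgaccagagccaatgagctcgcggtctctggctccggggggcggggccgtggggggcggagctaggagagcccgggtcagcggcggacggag

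The Il6st probe (30 of 60 bases) lies on the plus strand of chromosome 13 from 113296586 to 113296645 (mm9). The promoter, chr13:112463820-112464119 on the plus strand (RefSeq, GRCm38.p6), is shown because Il6st is the other called gene with an entry. Its capitals mark the IRF motif on the reverse strand, from base -224 to -217.

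**Figure D3:**
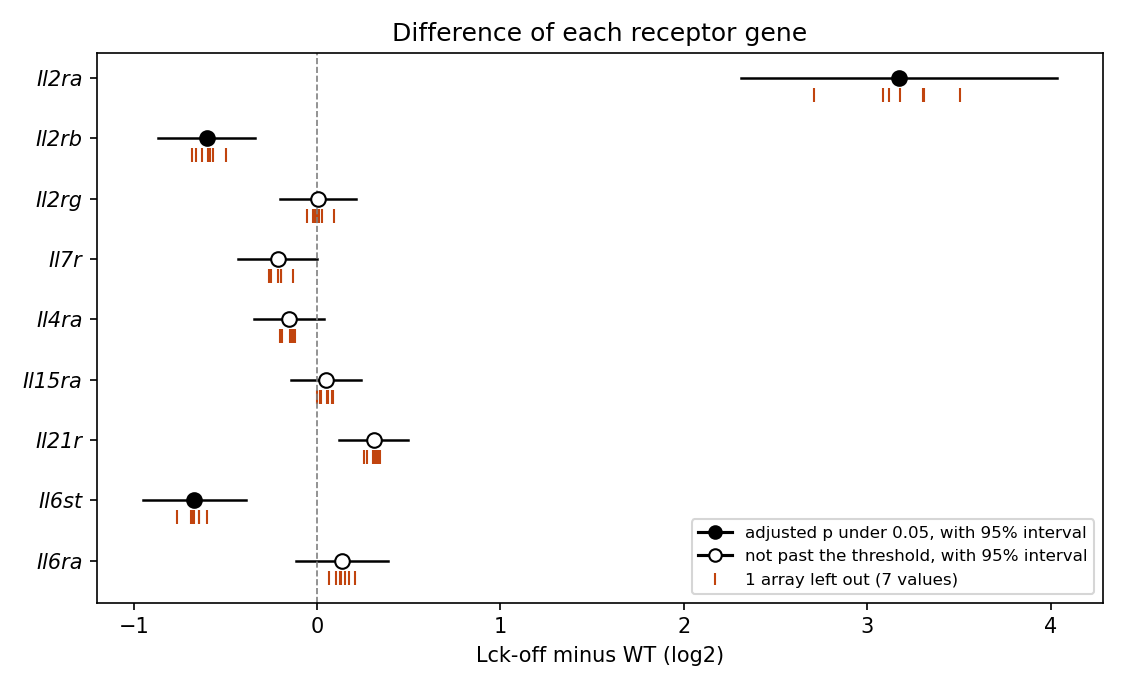
Difference of each receptor gene, Lck-off minus WT in log2 units (x axis), with its 95% confidence interval; filled circles are past an adjusted p of 0.05 and vertical ticks are the values with 1 of the 7 arrays left out. Il2ra lies at 3.17, Il2rb at -0.60 and Il6st at -0.67, and the ticks of these 3 stay on their side of 0.

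The exact permutation test over the 35 splits of the arrays gave its smallest possible two-sided p of 0.0286 for Il2ra, Il2rb, Il6st and Il21r. For Il7r it gave an exact p = 0.0571.

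For each called receptor gene, the closest genes were sought among 10334 genes with a current symbol. Closeness was the root mean square difference of mean-centred log2 levels over the 7 arrays. A called gene differs between the groups, so its closest genes share a difference of like size and give it no separate support. For Il2ra the likeness rests on its 4 Lck-off levels and on 3 WT levels that were not well above background, so the order of the WT arrays carries no information. Its closest genes were Ly6c1 (0.28), a surface antigen of memory CD8 cells, Cd86 (0.33), a costimulatory ligand of antigen-presenting cells, and Eppk1 (0.35). Cd86 was at 1.25 ± 0.38 in Lck-off and -1.76 ± 0.42 in WT. For Il2rb they were Sytl2 (0.07), Fxyd7 (0.08) and Xylt2 (0.08). For Il6st they were Pou2af1 (0.07), a B cell coactivator, Pdzd4 (0.08) and Atg14 (0.08), an autophagy gene.

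Of 92 other measured genes within 0.5 Mb of a receptor gene's probe, 7.61% were called (7 genes, 1 rose and 6 fell), against 8.38% of all genes. Around Il2ra no gene other than itself was called among 6 neighbours. Near Il2rb, Kctd17 fell by 0.55 in addition to AI790276. Near Il6st, the nearest measured gene with a call was 2810403G07Rik, which fell by 0.62. Beside Il6ra, which did not pass, She fell by 1.03 and Adar, an interferon-inducible RNA editing enzyme gene, rose by 0.79. Nsmce1, near Il4ra and Il21r, fell by 0.51.

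**Figure D4:**
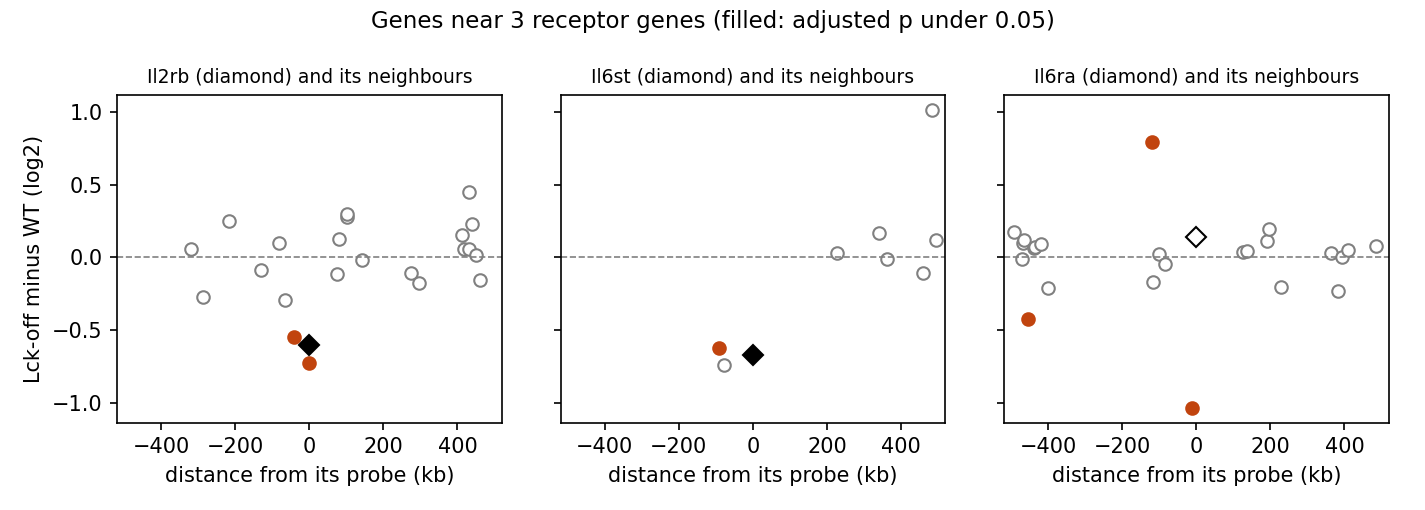
Differences (Lck-off minus WT, log2) of measured genes by their distance in kb from the probe of Il2rb, Il6st or Il6ra, drawn as a diamond at 0. Filled symbols are past an adjusted p of 0.05: 2 of 22 neighbours of Il2rb, 1 of 8 of Il6st and 3 of 24 of Il6ra.

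Of 66 other measured genes of the pathway 7 rose and 6 fell, or 19.7% against 8.38% of all genes, with a median difference of -0.02 against -0.01. Of these 13 genes 5 were feedback inhibitors. The ligands gave little signal: of 16 on the array 4 were measured and 0 passed by limma, at differences of -0.04 to 0.29. The genes of IL-2, IL-4, IL-7, IL-15, IL-21 and IL-6 had no array on which they were well above background. None of 6 measured chains of the gp130 family passed the test, among them Il27ra (0.09) and Il12rb1 (0.39), and neither did the shedding protease genes Adam10 (0.02) and Adam17 (0.13).

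The kinases and STATs that the gamma chain receptors use did not pass. Jak1, the kinase on the cytokine-specific chains, differed by -0.07 (adjusted p = 0.678 by limma), Jak3, the kinase on the gamma chain, by -0.23 (0.391), and Tyk2 by -0.13 (0.567). Stat5a and Stat5b, which carry the IL-2, IL-7 and IL-15 signals, differed by -0.04 and -0.12. Of 11 JAK and STAT genes 2 rose and 0 fell, among them Stat2, which acts in the interferon response (0.96 ± 0.13 SE, adjusted p = 0.00531 by limma). The list's median was -0.09.

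Of 14 feedback inhibitors 3 rose and 2 fell, with a median of -0.04. Cish, an inhibitor induced by STAT5, was at 1.64 ± 0.12 in Lck-off and -0.14 ± 0.20 in WT, a rise of 1.79 (adjusted p = 0.000411 by limma). Socs1, which blocks JAK activity at gamma chain and interferon receptors, was at 4.25 ± 0.04 in Lck-off and 3.02 ± 0.19 in WT. Socs3, which binds gp130 and restrains IL-6 signalling, was at 6.32 ± 0.27 in Lck-off and 5.40 ± 0.19 in WT. Socs1 rose by 1.24 and Socs3 by 0.92, while the phosphatase gene Ptpn6 fell by 0.68 and Socs5 by 0.60. Socs3 and Ptpn6 lost their calls in 2 of 7 repeats that left out 1 array (without WT replicate 1 or 2 for Socs3, without Lck-off replicate 3 or 4 for Ptpn6; adjusted p up to 0.0624 and 0.0655). With no filter on dim probes both calls also ended (adjusted p = 0.0633 for Socs3 and 0.0902 for Ptpn6), and that of Ptpn6 ended with median scaling (0.0902). Socs5 lost it in 5 of 7 (adjusted p up to 0.124), and held it without WT replicate 1 and without Lck-off replicate 3. It also missed with median scaling (0.123), no filter (0.136) and the slide row as a block (0.0561).

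Of 13 genes that these cytokines are known to induce or repress 2 rose and 1 fell, with a median of 0.11. Pim2, a survival kinase, fell by 0.89 (adjusted p = 0.00195 by limma). Bcl2l1, the gene of the anti-apoptotic protein Bcl-xL, rose by 0.53, and Cdkn1b, a cell cycle inhibitor, rose by 0.31. With single arrays left out, Bcl2l1 passed in 1 of 7 fits (adjusted p up to 0.121), that without Lck-off replicate 4, and Cdkn1b passed in 0 of 7 (adjusted p up to 0.106). Both also missed with median scaling, with no filter on dim probes and when slide rows were blocked (adjusted p = 0.0593 to 0.42). Cdkn1b missed as well with its kept probes averaged (0.30, adjusted p = 0.167 by limma). Its fainter probe alone did not pass (0.29, adjusted p = 0.495 over the kept probes by limma).

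Of 15 measured transcription factors known to act on the receptor genes 0 rose and 2 fell, with a median of -0.02. Tbx21 (T-bet) and Eomes, T-box factors that act on Il2rb, were at 0.56 ± 0.15 and 0.77 ± 0.18 in Lck-off, against 1.51 ± 0.13 and 1.63 ± 0.09 in WT. They fell by 0.95 and 0.86. Foxo1, which acts on Il7r, did not pass (0.12, adjusted p = 0.349 by limma).

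**Figure D5:**
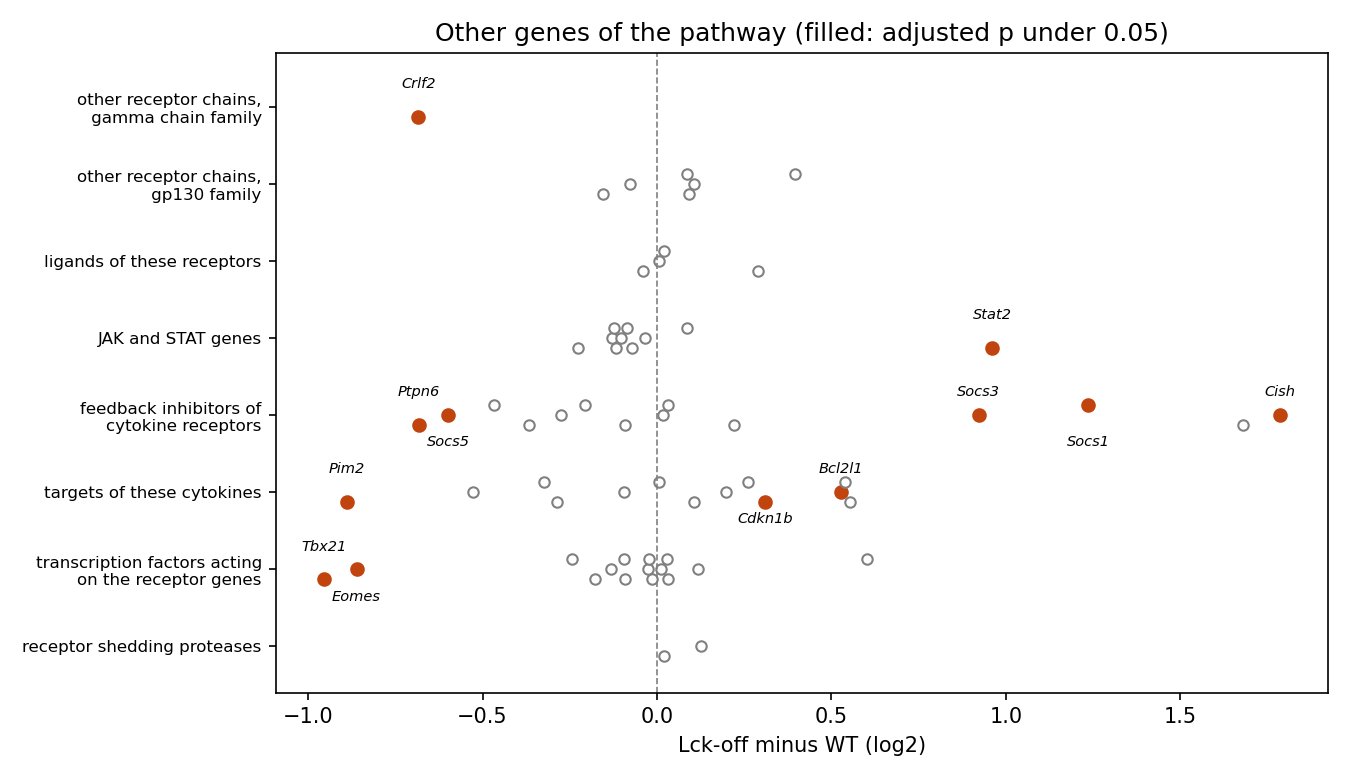
Difference (Lck-off minus WT, log2, x axis) of measured genes in 8 lists of other chains, ligands, signalling genes, inhibitors, targets, transcription factors and proteases; points are genes and are set apart vertically for legibility. Filled, named genes are past an adjusted p of 0.05, with Cish highest at 1.79 and Tbx21 lowest at -0.95.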

How the data were processed

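Total RNA of sorted T cells was labelled with Cy3 (Low Input Quick Amp kit, per the labels' protocols) and hybridised to Agilent arrays of design 028005, with probe positions on mm9. Intensity values came from the authors' use of Feature Extraction 10.7.3.1, per the file headers: the processed intensity is background subtracted and detrended within an array and not normalized between arrays. The other columns used, flags and spot types, are deposited in the same files. The authors' deposited table of values appears to be log2, judged by its numbers (medians of 6.34 to 6.35 in every column), matched by feature number (Pearson's r of 0.953 to 0.963 with the log2 scanner values across spots); the submitters' processing notes name limma, with no steps stated for the table in the sources used here.

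Processed intensities were divided by each array's 75th percentile and put on the log2 scale. Non-uniform spots were left missing, and 25578 of 55681 probes were kept, those well above background on 3 or more of the 7 arrays. Each gene was read by its brightest kept probe, and limma 3.58.1 (R 4.3.3) compared 4 Lck-off with 3 WT arrays with no covariate. Same-numbered arrays of the groups did not deviate together (r of 0.106, 0.049 and -0.008), so numbers were not used as pairs. The fit was tested on simulated data, where it recovered 74% of differences of 1 log2 unit and 96% of those of 2, with 6.08% false calls. The number of arrays limits the precision, and the median SE of a difference was 0.11.

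Where every array of 1 group was not well above background, the fold is set against the faintest probe well above background on those arrays. Such a fold is not a minimum. Named were the 9 receptor genes, each pathway gene that passed (save 1 not reported here), 8 genes of set role, and the 3 genes closest to each called receptor gene; neighbours, and further uncalled genes given as examples, were chosen after values were seen. The genes, lists and motifs were chosen with earlier results of these data known. Alternatives were other background correction, scalings, filters, probe averaging, moderation, the deposited table, blocks by replicate number or slide row, each row alone, and each array left out. Slide rows were inferred from the names of the scanner files. Row 1 held Lck-off replicates 2 and 3 and WT replicate 3, so its fit has a single WT array.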

Additional observations from a re-analysis of the deposited data

Results flagged for a closer look

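In the 4 Lck-off arrays, the difference between the fainter and the brighter Il4ra probe was -3.19, -3.77, -3.20 and -3.28, against -3.28, -2.87 and -3.13 in the WT arrays. Lck-off replicate 2 lay far from the other Lck-off arrays (a gap of 0.84 of the group's range, above the 95% critical value of Dixon's test). Chance marks about 1 in 20 groups so. The same search covered the Lck-off levels of the 9 receptor genes and of the 13 called pathway genes, and the Il15ra probe difference. None of those was marked.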

How the results depend on the processing

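Il2ra kept its direction under every alternative run and its call under all but slide row 2 alone (2.50, adjusted p = 0.0825); requiring signal on all 7 arrays removes it. The calls of Il2rb and Il6st ended with median scaling (-0.62 and -0.69), with no filter on dim probes (-0.60 and -0.67), with the replicate block (-0.57 and -0.64), within slide row 1 (-0.74 and -0.76) and within row 2 (-0.57 and -0.57). Il21r passed with normexp (0.32), quantile normalization (0.29), the deposited table (0.32) and trended, robust moderation (0.31), and Il4ra with all kept probes averaged (-0.28). The sign of Il2rg, near 0 throughout, turned with quantile normalization (-0.039), median scaling (-0.012), the slide row as a block (-0.011) and within row 1 (-0.17), and that of Il6ra within row 2 (-0.020).

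Receptor genes called numbered 1 with median scaling, 1 with no filter and 1 with the replicate block, but 4 with normexp, quantile normalization, the deposited table, probe averaging or trended, robust moderation. All genes called were 918, 717 and 374 under these settings in the same order, against 1527, and pathway genes called were 8 with no filter and 4 with the replicate block, against 13. The most were called with trended, robust moderation (1984 genes, 17 of them in the pathway). The replicate block also ended the calls of Crlf2 (-0.71, adjusted p = 0.0629), Tbx21 (-0.89, 0.0516), Stat2 (0.90, 0.0674), Socs3 (0.87, 0.094), Ptpn6 (-0.64, 0.183), Socs5 (-0.55, 0.185), Bcl2l1 (0.61, 0.0707) and Cdkn1b (0.33, 0.22). With 1 array left out, the difference was 2.71 to 3.51 for Il2ra, -0.68 to -0.50 for Il2rb, -0.76 to -0.60 for Il6st and -0.052 to 0.091 for Il2rg. Receptor genes called were 1 to 3 (1 without WT replicates 1 or 3 or Lck-off replicates 3 or 4), all genes called 960 to 1405, and pathway genes called 9 to 12. The replicate block leaves Lck-off replicate 4 without a partner, and the same-numbered arrays are not known to share anything but a number. Of 170 repeats of the receptor differences, 137 kept direction and side of the threshold. The causes of these changes were not tested. A fit within a row or with an array left out has fewer arrays. Without the filter more genes were tested, and the SE also rose, from 0.113 to 0.129 for Il2rb and from 0.120 to 0.135 for Il6st. Signal over background limits Il2ra in WT, where its level is only bounded.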
